A study of Mus musculus with 22 samples.

Results

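The 9 genes described here are transcriptional targets and feedback regulators of bone morphogenetic protein (BMP) and WNT signalling. They are Msx1, Msx2, Id1, Id2, Id3, Smad6, Smad7, Axin2 and Lef1, chosen by symbol as a list of known response genes. All 9 were found among the 37991 genes counted in mouse primordial germ cells (PGCs), and all 9 were among the 17567 genes with enough reads to test. BMP ligands bind paired kinase receptors that phosphorylate SMAD proteins, which then enter the nucleus with SMAD4 and switch on target genes. WNT ligands bind Frizzled and LRP receptors and stabilise beta-catenin, which acts on DNA through TCF and LEF factors. In the mouse both pathways are known for their part in setting aside PGCs, and in the fetal ovary BMP signalling is known to act with retinoic acid when germ cells enter meiosis.

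PGCs were sorted from embryos carrying the GOF18∆PE-EGFP reporter, a Pou5f1 transgene that lights up germ cells, and their RNA was sequenced. Tet1-KO and Tet1-WT embryos, the offspring of parents that each carried 1 mutant Tet1 allele and the reporter, were taken at E10.5 without separating the sexes and as males and females at E12.5 and E14.5. These 10 groups held 2 libraries each, and each library was made from the pooled RNA of 2 to 6 embryos that shared genotype and stage, and also sex at E12.5 and E14.5. A separate group of 2 wild-type E10.5 libraries came from MF1 mothers and reporter fathers, with another RNA kit. The pools are not known to share litters or days, and p-values measure the spread between pools. A change is called where edgeR's quasi-likelihood test gave an adjusted p under 0.05 over all tested genes. Tet1 encodes a dioxygenase that oxidises 5-methylcytosine in DNA.

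Library totals were 9616436 to 25899505 counts in the Tet1 cross, and 59415040 and 66924911 counts in the MF1 cross. Tet1 itself was lower in Tet1-KO than in Tet1-WT, without overlap, at E12.5 and E14.5 in both sexes. At E10.5 the libraries labelled Tet1-KO had 44.5 and 102 counts-per-million (CPM) of Tet1, against 134 and 76.8 CPM in those labelled Tet1-WT, so the groups overlapped and the labels are kept as names there. Germ cell markers were present in every library, at a summed level of 1414 to 10930 CPM over 9 genes. The E10.5 libraries labelled Tet1-WT stood apart, with 1414 and 1719 CPM of germ cell markers and 1636 and 1979 CPM of 12 mesenchyme markers. E12.5 Tet1-WT libraries also held much mesenchyme RNA, 802 to 1849 CPM, and E14.5 libraries held 13.8 to 38.7 CPM. In such bulk RNA fewer cells of a type and less RNA per cell cannot be told apart.

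The promoters of 4 members are shown because the results turn on these genes: Id2, Id3 and Msx1 differed between the sexes at E14.5, and Lef1 was the member called between Tet1-KO and Tet1-WT on average. RefSeq windows of build GRCm38.p6, from 250 bases before to 50 bases after the annotated start, were matched by symbol for 7 of the 9 members, 1 window each and 4 for Lef1. No window was used for Id1 or Smad7, and windows on the chromosome that carries Smad7 were left out of the match. The 250 bases before the start are printed 5′ to 3′ on the strand of the gene, and capitals mark GGCGCC and CAGAC, letters known as SMAD binding sequences, or their reverse complements.
Id2 (chr12:25096093-25096342, minus strand): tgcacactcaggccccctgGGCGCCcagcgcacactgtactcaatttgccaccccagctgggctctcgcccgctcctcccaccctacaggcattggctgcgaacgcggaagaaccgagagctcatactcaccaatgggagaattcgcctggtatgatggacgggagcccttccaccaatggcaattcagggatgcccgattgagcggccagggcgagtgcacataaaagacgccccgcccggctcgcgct
Id3 (chr4:136143572-136143821, plus strand): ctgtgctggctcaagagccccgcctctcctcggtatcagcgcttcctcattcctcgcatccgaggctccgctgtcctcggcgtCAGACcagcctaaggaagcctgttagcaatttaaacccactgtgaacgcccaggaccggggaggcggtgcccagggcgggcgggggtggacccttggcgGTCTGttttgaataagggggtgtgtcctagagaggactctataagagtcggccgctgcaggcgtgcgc
Msx1 (chr5:37824586-37824835, minus strand): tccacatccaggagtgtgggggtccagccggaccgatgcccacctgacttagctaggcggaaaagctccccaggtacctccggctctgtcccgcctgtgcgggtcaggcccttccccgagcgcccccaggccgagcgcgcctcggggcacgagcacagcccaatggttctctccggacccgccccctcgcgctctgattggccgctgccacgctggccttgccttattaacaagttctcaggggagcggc
Lef1 (chr3:131110047-131110296, plus strand): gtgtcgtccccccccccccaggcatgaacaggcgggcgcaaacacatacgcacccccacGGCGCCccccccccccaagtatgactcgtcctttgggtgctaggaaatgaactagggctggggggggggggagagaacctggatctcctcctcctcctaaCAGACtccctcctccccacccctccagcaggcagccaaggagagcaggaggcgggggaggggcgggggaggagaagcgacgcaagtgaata

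Searched on both strands of the 300-base windows, GGCGCC stood in the Id2 window at position -231 and in the printed Lef1 window at position -191, counted from the start; a Lef1 window that overlaps the printed one held it too. It was found in 11.9% of all 32851 RefSeq windows. CAGAC, held by 49.6% of windows, had 2 matches in the Id3 window, 1 in that of Axin2 and at least 1 in 3 of the 4 Lef1 windows. No match of one motif overlapped a match of another in these windows. The palindrome GTCTAGAC, held by 0.213% of windows, was found in the Smad6 window at position -4. Neither CTTTGAT nor CTTTGAA, spellings of the TCF and LEF motif held by 3.73% and 5.14% of windows, was in any window of the 7 members. GC content was 70% for Msx1, 63.3% for Id2, 60% for Id3 and 67.3% for the printed Lef1 window, against a median of 52.7% over all windows. The Msx1 window held 29 CG pairs, the Id2 window 21, the Id3 window 19 and the Lef1 window 18, against a median of 7. A match is only a match of letters, and no binding was measured.

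Per kilobase of exon, Id3 was the most abundant member, with a median of 392 CPM per kb over the 20 libraries of the Tet1 cross. Id2 followed at 80.7, Id1 at 69.1 and Lef1 at 9.50 CPM per kb. Msx2 had a median of 3.28, Msx1 of 3.16, Smad7 of 2.44, Axin2 of 1.89 and Smad6 of 1.10 CPM per kb. The spread over groups also differed between members. The highest group mean was 91.7 times the lowest for Msx1, 70.8 times for Msx2, 74.5 times for Id2, 48.5 times for Id1 and 10.98 times for Id3. For Smad6 it was 6.15 times, for Axin2 2.89 times, for Lef1 2.83 times and for Smad7 2.67 times the lowest. An E14.5 male group was the lowest for 6 members, and an E14.5 female group was the highest for 5.

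**Figure D1:**
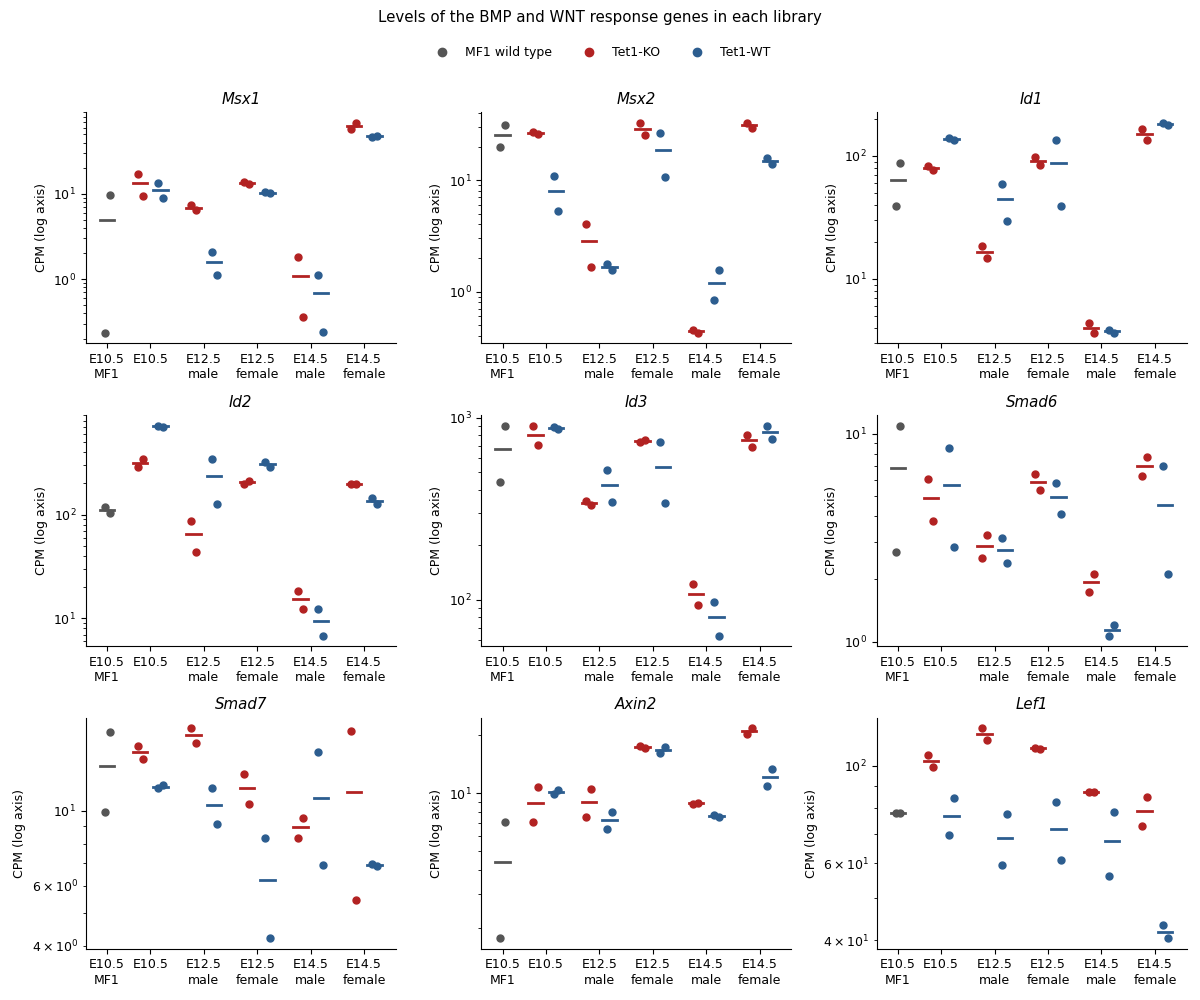
Each panel plots CPM of 1 gene on a log axis, with 1 point per library and a bar at the mean of the 2 libraries of a group, for MF1 wild type, Tet1-KO and Tet1-WT. The Id and Msx genes are lower in E14.5 male groups than in E14.5 female groups of both genotypes, while Lef1 points of Tet1-KO lie above those of Tet1-WT in all 5 stage and sex groups.

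ID proteins are helix-loop-helix factors without a DNA-binding domain that hold other factors of that family off DNA, and Id1, Id2 and Id3 are classical BMP targets. In E14.5 Tet1-WT germ cells all 3 were far lower in males than in females. Id1 was at 3.86 and 3.64 CPM in males, against 186 and 178 CPM in females. Id2 was at 12.2 and 6.83 CPM in males, against 144 and 127 CPM in females. Id3 was at 96.7 and 63.4 CPM in males, against 906 and 765 CPM in females. Libraries of the sexes lay far apart for each gene. The log2 changes, male over female, were -5.60 (SE 0.49, adjusted p = 1.26e-06) for Id1, -3.84 (SE 0.42, adjusted p = 8.89e-06) for Id2 and -3.39 (SE 0.32, adjusted p = 2.36e-06) for Id3. Id1 was thus 48.5-fold, Id2 14.4-fold and Id3 10.4-fold lower in males. Tet1-KO germ cells at E14.5 showed the same arrangement of levels. Id1 was at 4.39 and 3.64 CPM in Tet1-KO males and at 165 and 135 CPM in Tet1-KO females. Id2 was at 18.2 and 12.4 CPM in Tet1-KO males and at 197 CPM in both Tet1-KO female libraries.

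Msx1 and Msx2 encode homeodomain repressors, and in the mouse both are known as BMP targets of ovarian germ cells. Msx1 was at 1.13 and 0.240 CPM in E14.5 Tet1-WT males, which is 19 and 6 reads, against 46.9 and 48.2 CPM in females. Msx2 was at 0.832 and 1.56 CPM in those males, against 15.9 and 13.99 CPM in females. Neither gene overlapped between the sexes. The log2 change, male over female, was -6.18 for Msx1 (SE 0.71, adjusted p = 1.18e-05) and -3.62 for Msx2 (SE 0.54, adjusted p = 0.000133). Msx1 in Tet1-KO was at 1.81 and 0.364 CPM in E14.5 males and at 57.4 and 68.1 CPM in E14.5 females. Msx2 in Tet1-KO was at 0.452 and 0.425 CPM in males and at 32.6 and 29.4 CPM in females.

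Smad6 encodes an inhibitory SMAD that BMP signalling induces as a brake on itself, and Smad7 a related inhibitor that also restrains TGF-beta signalling. Smad6 was at 1.07 and 1.199 CPM in E14.5 Tet1-WT males, against 6.95 and 2.12 CPM in females, a log2 change of -2.00 (SE 0.71, adjusted p = 0.0446). The female libraries differed from each other more than the lower of them did from the males. The adjusted p was 0.544 without E14.5 female Tet1-WT replicate 1, 0.177 without male replicate 1 and 0.155 without male replicate 2. Smad7 was at 14.9 and 6.91 CPM in males and 6.95 and 6.89 CPM in females, and the groups overlapped (log2 change 0.65, 95% interval -0.42 to 1.72).

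Among the WNT response genes, Axin2, a scaffold of the complex that destroys beta-catenin and a feedback target of the pathway, was at 7.67 and 7.55 CPM in E14.5 Tet1-WT males and 10.9 and 13.3 CPM in females. Its log2 change was -0.67 (95% interval -1.36 to 0.03, adjusted p = 0.144). Lef1, a DNA-binding partner of beta-catenin, differed in the opposite direction to the Id and Msx genes, at 55.9 and 78.6 CPM in males, against 43.2 and 40.4 CPM in females. The log2 change of Lef1 was 0.69, higher in males (SE 0.20, adjusted p = 0.0187). That call was lost without E14.5 female replicate 1 (adjusted p = 0.0745), female replicate 2 (0.112) or male replicate 2 (0.225). In all, 6 members fell and 1 rose, male over female, at E14.5. Over all tested genes 28.1% were called in this comparison, 14% higher and 14.1% lower in males. The median log2 change was -3.39 over the 9 members and -0.00478 over all tested genes. Summed mesenchyme markers were 22.9 and 34.6 CPM in these males and 34.0 and 38.7 CPM in the females. Summed gonadal somatic markers were 38.5 to 48.5 CPM in males and 0.954 to 2.62 CPM in females, and their part in the differences was not tested.

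At E12.5 the sexes were closer. Msx2 was the 1 member called, at 1.75 and 1.57 CPM in Tet1-WT males, against 26.6 and 10.7 CPM in females, a log2 change of -3.49 (SE 0.54, adjusted p = 0.00572). Its adjusted p was 0.115 without male replicate 1 and 0.106 without male replicate 2. Over all genes 0.575% were called, 0.33% lower in males. Msx1 was at 2.06 and 1.13 CPM in males and 10.49 and 10.1 CPM in females, without overlap (log2 change -2.69, adjusted p = 0.0575), and DESeq2 called it (adjusted p = 0.000417). Axin2 was also apart, at 6.53 and 7.96 CPM in males and 16.1 and 17.4 CPM in females (log2 change -1.21, adjusted p = 0.111), and was called by DESeq2 (adjusted p = 0.00461). In this comparison DESeq2 called 4.23% of all genes. The 3 Id genes overlapped between the sexes at this stage. Their 95% intervals of the log2 change were -1.82 to -0.13 for Id1, -1.18 to 0.39 for Id2 and -0.95 to 0.29 for Id3. Without a low-count filter edgeR called Id1 lower in males, where 2.24% of all genes were called. Mesenchyme sums were 1193 and 1849 CPM in these males and 802 and 1138 CPM in the females. Gonadal somatic sums were 89.8 and 141 CPM in males and 44.3 and 70.2 CPM in females. Germ cell sums were 4926 and 5938 CPM in males and 6809 and 7607 CPM in females. Endothelial and erythroid sums overlapped between the sexes. The part of the marker RNA in these differences was not tested.

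**Figure D2:**
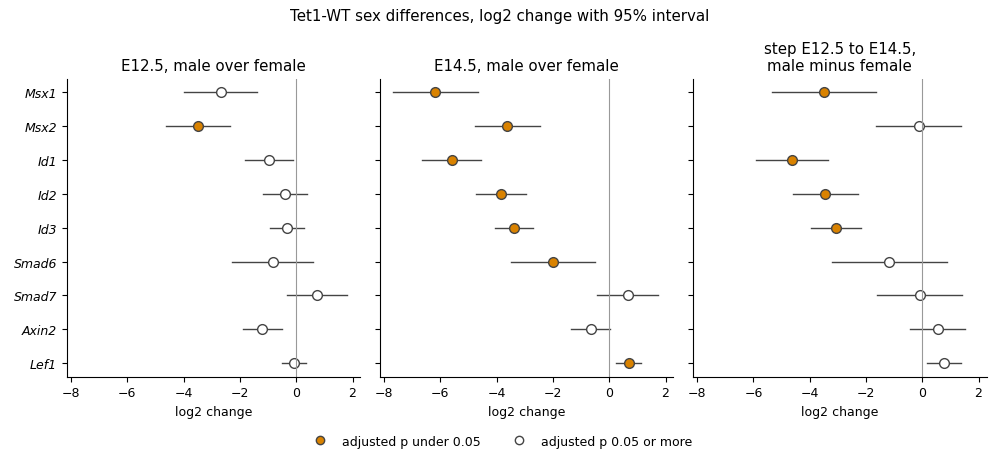
Points are log2 changes of the 9 genes in Tet1-WT with 95% intervals as lines, male over female at E12.5 and E14.5 and, on the right, the male minus female difference of the step between these stages; filled points have an adjusted p under 0.05. At E14.5 the Id, Msx and Smad6 points lie at -2.00 or lower, and Lef1 lies at 0.69.

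The stages were compared within Tet1-WT to ask when the sexes parted. In male germ cells Id1, Id2 and Id3 all fell between E12.5 and E14.5. Id1 was at 3.86 and 3.64 CPM at E14.5, against 58.8 and 29.8 CPM at E12.5 (log2 change -3.56, SE 0.45, adjusted p = 0.000154). Id2 was at 12.2 and 6.83 CPM at E14.5, against 339 and 127 CPM at E12.5 (log2 change -4.62, SE 0.44, adjusted p = 9.72e-06). Id3 was at 96.7 and 63.4 CPM at E14.5, against 514 and 342 CPM at E12.5 (log2 change -2.42, SE 0.31, adjusted p = 0.000154). None of these groups overlapped, and the 3 calls held whichever of the 4 libraries was left out. These were the 3 members called, all lower, with 12.7% of genes called and 7.75% called lower. The mesenchyme markers fell in the same step, 11 of 12 called lower, with sums of 22.9 and 34.6 CPM at E14.5 and 1193 and 1849 CPM at E12.5; their part in the Id changes was not tested. Msx1 was at 1.13 and 0.240 CPM in E14.5 males, against 2.06 and 1.13 CPM at E12.5 (log2 change -1.29, 95% interval -2.71 to 0.13), and it was called lower without E14.5 male replicate 1 (adjusted p = 0.0446). For Msx2 the 95% interval of the log2 change was -1.59 to 0.68.

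Female germ cells took another course from E12.5 to E14.5. Msx1 rose to 46.9 and 48.2 CPM at E14.5, against 10.49 and 10.1 CPM at E12.5 (log2 change 2.20, SE 0.56, adjusted p = 0.00875). Id2 fell to 144 and 127 CPM, against 324 and 289 CPM (log2 change -1.18, SE 0.38, adjusted p = 0.0306). Lef1 fell to 43.2 and 40.4 CPM, against 82.6 and 61.1 CPM (log2 change -0.78, SE 0.20, adjusted p = 0.00966). These 3 were apart in every library, and 25.3% of all genes were called in this step, 11.3% higher and 14% lower. Msx1 had an adjusted p of 0.0527 without E12.5 female replicate 1 and 0.0688 without replicate 2. The Id2 call was lost whichever of the 4 libraries was left out, with adjusted p between 0.0613 and 0.151. That of Lef1 was lost without E12.5 replicate 1 (0.0929), E14.5 replicate 1 (0.0524) or E14.5 replicate 2 (0.0763). Id1 was at 186 and 178 CPM at E14.5 and at 135 and 39.0 CPM at E12.5 (log2 change 1.06, adjusted p = 0.0613), and Id3 had a log2 change of 0.64 (adjusted p = 0.129). DESeq2 called Id1 higher (adjusted p = 0.0219), and edgeR without a low-count filter called Id1 (adjusted p = 0.000334) and Id3 (adjusted p = 0.00628). Of all genes DESeq2 called 30.9% in this step, and edgeR without that filter 19.2%. Without E12.5 female replicate 1, edgeR also called Id1 (adjusted p = 0.000258) and Id3 (adjusted p = 0.00391). Mesenchyme markers fell here as well, 11 of 12 called lower, with sums of 34.0 and 38.7 CPM at E14.5 and 802 and 1138 CPM at E12.5. The part of the marker RNA in these changes was not tested.

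The male step minus the female step was tested directly. It was called for Id1 (log2 difference -4.63, SE 0.60, adjusted p = 0.00024), Id3 (-3.06, SE 0.42, adjusted p = 0.000352), Id2 (-3.45, SE 0.55, adjusted p = 0.000911) and Msx1 (-3.49, SE 0.87, adjusted p = 0.0154). These 4 of 9 were all lower, where 5.85% of all genes were called lower and 12.1% in either direction. The Msx1 call was lost without E12.5 female replicate 2 (adjusted p = 0.0501), E12.5 male replicate 1 (0.0843) or E14.5 male replicate 2 (0.0588). For Msx2 the difference was -0.13, with a 95% interval of -1.65 to 1.39.

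**Figure D3:**
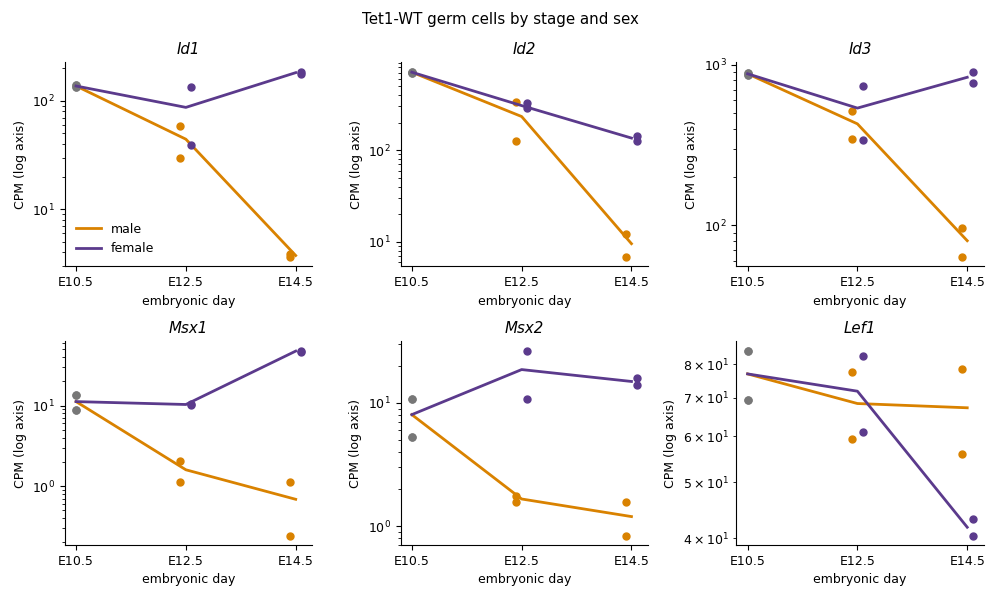
CPM on a log axis is plotted against embryonic day for 6 genes in Tet1-WT, with 1 point per library, grey at E10.5 where the sexes were not separated, and lines through the group means of males and females. At E12.5 the male and female means are 1.59 and 10.3 CPM for Msx1, 1.66 and 18.7 CPM for Msx2, and 44.3 and 87.0 CPM for Id1, whose libraries overlap. The gap between the lines is wider at E14.5 than at E12.5 for the 3 Id genes and Msx1, and the Lef1 line falls in females.

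For the earlier step, from E10.5 to E12.5, the E10.5 libraries labelled Tet1-WT held less germ cell marker RNA than any other group, as given above, and the part of this in the following changes was not tested. In males 5 of 9 members fell, with 9.45% of all genes called and 3.05% called lower. Msx1 was at 2.06 and 1.13 CPM in E12.5 males, against 13.6 and 8.86 CPM at E10.5 (log2 change -2.81, SE 0.61, adjusted p = 0.00832). Msx2 changed by -2.27 (adjusted p = 0.0117), Id1 by -1.63 (0.0184), Id2 by -1.61 (0.0137) and Id3 by -1.04 (0.0369) on the log2 scale. All 5 calls were lost without E12.5 male replicate 2, with adjusted p of 0.121 for Msx1, 0.123 for Msx2, 0.224 for Id1, 0.141 for Id2 and 0.334 for Id3. Without E10.5 replicate 1 the values were 0.114 for Msx2, 0.0679 for Id1, 0.0509 for Id2 and 0.125 for Id3. Without E10.5 replicate 2 they were 0.0643 for Id1, 0.0512 for Id2 and 0.115 for Id3, and without E12.5 male replicate 1 it was 0.0663 for Msx2.

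In females edgeR called 1 of the 9, Id2, between E10.5 and E12.5, with 13.6% of all genes called and 4.83% called lower. It was at 324 and 289 CPM in E12.5 females, against 721 and 699 CPM at E10.5 (log2 change -1.21, SE 0.37, adjusted p = 0.0426). That call was lost whichever of the 4 libraries was left out, with adjusted p between 0.104 and 0.191. Id3 was called lower in this step by DESeq2 (adjusted p = 0.0303), and without E12.5 female replicate 1 edgeR called Id1 (adjusted p = 0.00213) and Id3 (adjusted p = 0.00456). Axin2 was at 16.1 and 17.4 CPM in E12.5 females and 9.89 and 10.3 CPM at E10.5, without overlap (log2 change 0.73, adjusted p = 0.158). Msx2 overlapped, at 26.6 and 10.7 CPM in E12.5 females and 10.8 and 5.29 CPM at E10.5 (log2 change 1.22, adjusted p = 0.113).

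Loss of Tet1 was compared next, and Lef1 libraries of Tet1-KO lay above those of Tet1-WT in all 5 stage and sex groups. Lef1 was at 106 and 99.5 CPM in the E10.5 libraries labelled Tet1-KO, against 69.5 and 84.4 CPM in those labelled Tet1-WT. At E12.5 it was at 122 and 114 CPM in Tet1-KO males against 59.3 and 77.5 CPM in Tet1-WT males, and at 110.0 and 109 CPM in Tet1-KO females against 82.6 and 61.1 CPM in Tet1-WT females. At E14.5 it was at 87.2 CPM in both Tet1-KO male libraries against 55.9 and 78.6 CPM in Tet1-WT males, and at 73.0 and 84.8 CPM in Tet1-KO females against 43.2 and 40.4 CPM in Tet1-WT females. Tet1-KO and Tet1-WT libraries did not overlap in any of the 5 groups. Averaged over the 5, Lef1 was higher by 0.62 on the log2 scale (SE 0.09, 95% interval 0.43 to 0.81, adjusted p = 0.000415), a fold of 1.54. That adjusted p lay between 0.000286 and 0.00122 with each of the 20 libraries left out in turn. The average includes the E10.5 libraries, whose labels Tet1 did not separate. With the summed mesenchyme markers as a covariate, the averaged log2 change of Lef1 was 0.17 (SE 0.34). In that setting edgeR called 0 members and 0 of all 17567 tested genes. Marker sums of the genotypes overlapped only in E14.5 males, so this fit can hardly separate genotype from marker level. The absence of calls therefore decides nothing about Lef1. In E14.5 females, where mesenchyme sums were 13.8 and 16.9 CPM in Tet1-KO and 34.0 and 38.7 CPM in Tet1-WT, the change of Lef1 with that covariate was 0.64 (SE 0.28, adjusted p = 0.267), and 1.74% of all genes were called. Endothelial marker sums over 8 genes were 119 and 212 CPM in those Tet1-KO females and 58.3 and 73.8 CPM in Tet1-WT females, without overlap, with Kdr, Tie1, Esam and Emcn at 0 in Tet1-KO and Cdh5, Kdr and Emcn at 0 in Tet1-WT. Each of these Tet1-KO libraries detected 3 of the 8 markers and the Tet1-WT libraries 5 and 3, so the sums rest on few genes. The part of the endothelial markers in the Lef1 difference was not tested. In the averaged comparison edgeR called 13.9% of all genes, 6.9% higher, and Lef1 was the 1 member it called. DESeq2 called 18.9% of all genes there, and beside Lef1 it called Msx1 higher (adjusted p = 0.0278) and Id1 (adjusted p = 0.0369) and Id2 (adjusted p = 0.0152) lower. The median log2 change was 0.297 over the members and -0.0327 over all tested genes.

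Within single groups edgeR called Lef1 in E14.5 females, with a log2 change of 0.92 (SE 0.20, adjusted p = 0.0151). There 6.65% of all genes were called and 3.36% called higher, and Lef1 was the 1 member called. Its adjusted p was 0.125 without Tet1-KO library b, 0.123 without Tet1-WT replicate 1 and 0.0907 without replicate 2. Its log2 change was 0.42 at E10.5 (adjusted p = 0.207). At E12.5 it was 0.79 in males (adjusted p = 0.0734) and 0.61 in females (adjusted p = 0.182), and in E14.5 males it was 0.37 (adjusted p = 0.555). In E12.5 males other settings did call Lef1, DESeq2 with an adjusted p of 0.0124, edgeR without a low-count filter with 0.0437 and edgeR on the libraries of that comparison with 0.0308. In that order they called 4.71%, 3.46% and 9.24% of all genes, against 1.06% in the main fit. The difference of the Lef1 effect between the sexes was not called at E12.5 (0.18, 95% interval -0.42 to 0.78) or at E14.5 (-0.54, 95% interval -1.15 to 0.06). In E14.5 females Axin2 was also apart, at 20.3 and 21.6 CPM in Tet1-KO and 10.9 and 13.3 CPM in Tet1-WT (log2 change 0.80, adjusted p = 0.169).

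Msx2 was the member called at E10.5. It was at 27.3 and 26.0 CPM in libraries labelled Tet1-KO, against 10.8 and 5.29 CPM in those labelled Tet1-WT (log2 change 1.73, SE 0.49, adjusted p = 0.0403). Of all genes 8.81% were called there and 4.1% called higher, against 1 of 9 members. Without Tet1-WT replicate 2 the adjusted p was 0.266, without Tet1-KO replicate 1 it was 0.0873 and without Tet1-KO replicate 2 it was 0.0608. Germ cell marker sums were 3855 and 5934 CPM in libraries labelled Tet1-KO and 1414 and 1719 CPM in those labelled Tet1-WT. Mesenchyme sums were 398.5 and 835 CPM in those labelled Tet1-KO and 1636 and 1979 CPM in those labelled Tet1-WT. With the mesenchyme sum as a covariate edgeR called 0 members and 0.0797% of all genes at E10.5. That fit can hardly separate label from marker level. Elsewhere Msx2 was at 32.6 and 29.4 CPM in E14.5 Tet1-KO females and at 15.9 and 13.99 CPM in Tet1-WT females, without overlap (log2 change 1.05, adjusted p = 0.224). In E14.5 males it was at 0.452 and 0.425 CPM, 7 reads in each Tet1-KO library, and at 0.832 and 1.56 CPM in Tet1-WT (log2 change -1.45, adjusted p = 0.401). The difference of these effects, male minus female, was -2.51 with an adjusted p of 0.113, and DESeq2 called it (adjusted p = 0.036). For that difference DESeq2 called 6.27% of all genes. Msx1 in E12.5 males was at 7.32 and 6.40 CPM in Tet1-KO and 2.06 and 1.13 CPM in Tet1-WT (log2 change 2.10, SE 0.60, adjusted p = 0.118). DESeq2 called it there (adjusted p = 0.0142), and so did edgeR without a low-count filter (adjusted p = 0.00184). Of all genes these fits called 4.71% and 3.46% in E12.5 males.

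Id2 was the member called in E12.5 males. The 2 Tet1-KO libraries had 86.6 and 43.8 CPM of Id2, against 339 and 127 CPM in Tet1-WT (log2 change -1.84, SE 0.38, adjusted p = 0.0301). Libraries did not overlap, and the lower Tet1-WT library was closer to Tet1-KO library a than to its own partner on the linear scale. In this comparison 1.06% of all genes were called and 0.939% called lower. Without Tet1-WT replicate 1 the adjusted p was 0.594, without Tet1-KO library a 0.0568 and without Tet1-KO library b 0.323. Mesenchyme sums were 166 and 264 CPM in Tet1-KO and 1193 and 1849 CPM in Tet1-WT, with 6 of 12 markers called lower. With the sum as a covariate the log2 change of Id2 was 0.41, of the opposite sign and not called. That fit called 0% of all genes in E12.5 males. The sums of the genotypes did not overlap there, so the fit can hardly separate genotype from marker level. Id1 in the same males was at 18.4 and 14.7 CPM in Tet1-KO and 58.8 and 29.8 CPM in Tet1-WT (log2 change -1.42, adjusted p = 0.122), and was called lower by DESeq2 (adjusted p = 0.0102). Id2 was also apart at E10.5, at 284 and 339.9 CPM in libraries labelled Tet1-KO and 721 and 699 CPM in those labelled Tet1-WT (log2 change -1.19, adjusted p = 0.061), and was called by DESeq2 (adjusted p = 0.0103). Of all genes DESeq2 called 4.71% in E12.5 males and 15.8% at E10.5. In E14.5 females, where mesenchyme sums were at most 38.7 CPM in either genotype, Id2 was at 197 CPM in both Tet1-KO libraries and 144 and 127 CPM in Tet1-WT (log2 change 0.54, adjusted p = 0.457).

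**Figure D4:**
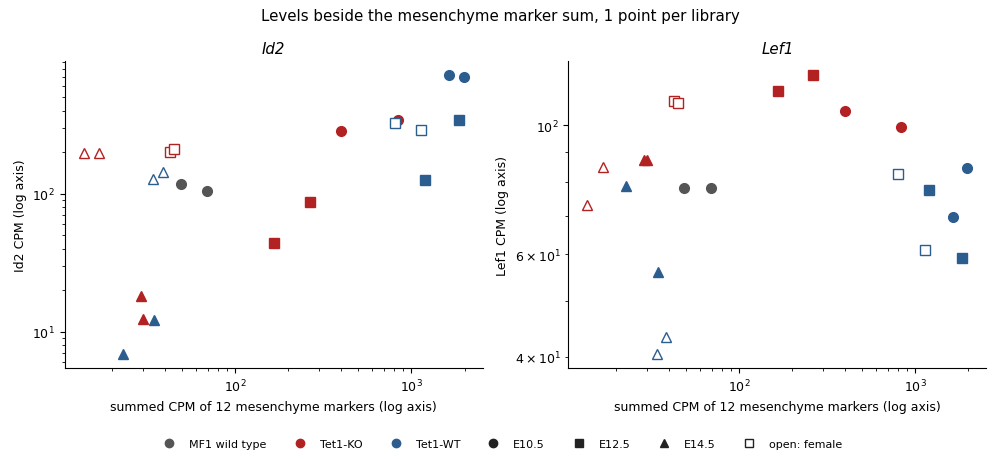
CPM of Id2 on the left and Lef1 on the right is plotted against the summed CPM of 12 mesenchyme markers, both on log axes, with 1 point per library coloured by genotype, shaped by stage and open for females. The Id2 points of the E10.5 libraries labelled Tet1-WT are the highest at 721 and 699 CPM, at marker sums of 1636 and 1979 CPM. The E12.5 Tet1-WT male library with a sum of 1849 CPM has 339 CPM of Id2. Lef1 of Tet1-KO lies above Tet1-WT of the same stage and sex. At E12.5 the Tet1-KO points sit at sums of 42.8 to 264 CPM, below the Tet1-WT range of 802 to 1849 CPM. Within a stage and sex, the sums of the genotypes overlap only in E14.5 males.

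In 2 groups edgeR called no member between Tet1-KO and Tet1-WT. In E12.5 females edgeR called 0 of 9 and 1.29% of all genes, with 1 member at an unadjusted p under 0.05, and DESeq2 called 0 of 9 and 4.47% of all genes. In E12.5 females Id1, Id3 and Lef1 were called higher only when Tet1-WT replicate 1 was left out. That fit held a single Tet1-WT library of this group, and more of all genes were called in it. In E14.5 males edgeR called 0 of 9 and 0.102% of all genes, with 1 member at an unadjusted p under 0.05, and DESeq2 called 0 of 9 and 1.99% of all genes. The difference of the Tet1-KO effect between the sexes was called by edgeR at E12.5 for 0 of 9 members and 0% of all genes, where 3 members had an unadjusted p under 0.05, and by DESeq2 for 0 members and 0.171% of all genes. At E14.5 edgeR called it for 0 of 9 members and 1.43% of all genes, with 1 member at an unadjusted p under 0.05, and DESeq2 for 1 member and 6.27% of all genes. The inhibitory SMADs were called in no Tet1-KO comparison. Smad7 was apart at E10.5, at 15.6 and 14.2 CPM in libraries labelled Tet1-KO and 11.6 and 11.9 CPM in those labelled Tet1-WT, and apart at E12.5 in both sexes. Its averaged log2 change was 0.47 (95% interval -0.01 to 0.94, adjusted p = 0.194), and that of Smad6 was 0.30 (95% interval -0.35 to 0.94, adjusted p = 0.641). For Id3 the averaged interval was -0.22 to 0.34.

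**Figure D5:**
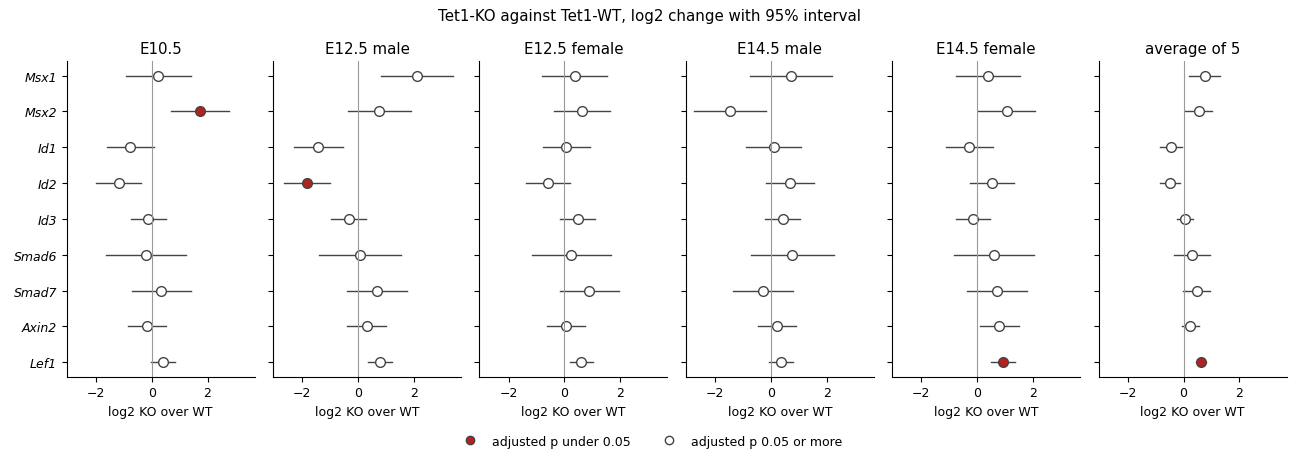
Points are log2 changes of Tet1-KO over Tet1-WT with 95% intervals as lines for the 9 genes in the 5 stage and sex groups and for their average, and filled points have an adjusted p under 0.05. The filled points are Msx2 at E10.5, Id2 in E12.5 males, and Lef1 in E14.5 females and on average.

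Over the 20 libraries of the Tet1 cross the pairs among the Id and Msx genes and Smad6 had correlations of log2 CPM between 0.668 and 0.97. Pearson's r was 0.97 for Id1 with Id3, 0.915 for Id2 with Id3, 0.89 for Id1 with Id2 and 0.846 for Msx1 with Msx2, and the lowest were 0.668 for Msx1 with Id2 and 0.718 for Msx2 with Id2. Axin2 reached 0.668 with Msx1 and 0.684 with Msx2, and lay between 0.369 and 0.588 with the Id genes and Smad6. Smad6 correlated with the Id and Msx genes at 0.75 to 0.819, and Smad7 with the other members at -0.33 to 0.474. Lef1 and Axin2, both WNT targets, had an r of 0.00231. These values describe 20 libraries in 10 groups that share stage and sex differences. Among 14772 genes the closest to Id1 and to Id3 was Nfkb1, at an r of 0.936 and 0.953. Closest to Id2 was Mdk at 0.971, to Msx1 Fmc1 at 0.969, to Msx2 Porcn at 0.95, to Smad6 Atad2b at 0.867, to Smad7 Rps13 at 0.779, to Axin2 Fam186a at 0.897 and to Lef1 Esrrb at 0.902.

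The other genes of the pathways were read from lists of ligands, receptors, transducers, inhibitors, further response genes and meiotic entry genes, 106 genes of which 101 could be tested. In E14.5 Tet1-WT, male against female, 12 of the 101 were higher and 26 lower, where 14% of all genes were higher and 14.1% lower. The median log2 change was -0.467 over the 101 and -0.00478 over all tested genes. All 6 meiotic entry genes were lower, among them Stra8, the retinoic acid target needed for meiotic entry, at 1.53 ± 0.19 CPM in males and 670 ± 135 CPM in females (SD, n = 2 each). Of 9 further BMP response genes 1 was higher and 3 lower. Gata2, a transcription factor gene, was at 2.08 ± 0.34 CPM in males and 90.3 ± 6.36 CPM in females (log2 change -5.42, adjusted p = 1.32e-06), and Hey1, a Notch and BMP target, was at 31.55 ± 0.09 CPM in males and 3.39 ± 1.80 CPM in females. Among 12 further WNT response genes 1 was higher and 5 lower in males. Of the WNT ligands and R-spondins 1 was higher and 1 lower of 9 tested, and Wnt3 was at 140 ± 13.7 CPM in males and 3.33 ± 2.64 CPM in females (log2 change 5.48, adjusted p = 4.02e-06).

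Of the same 101 genes at E12.5, 1 was higher and 3 were lower in Tet1-WT males than in females, where 0.575% of all genes were called. The lower ones were Dlx3, Zglp1 and Stra8, and the higher one was Wnt3. Zglp1, which encodes a GATA-like factor known in mouse for BMP-driven oogenic fate, was at 16.1 ± 2.75 CPM in males and 85.4 ± 12.6 CPM in females (log2 change -2.41, adjusted p = 0.0052). In the male step from E12.5 to E14.5, 4 of the 101 were higher and 19 lower, where 12.7% of all genes were called. In the female step 11 were higher and 22 lower, where 25.3% of all genes were called. Mesenchyme markers fell in both steps, as given above. Gata2 was among the male falls, at 2.08 ± 0.34 CPM at E14.5 and 37.1 ± 10.9 CPM at E12.5. Smad5, a BMP-transducing SMAD, was at 36.7 ± 6.95 CPM in males at E14.5 and 105 ± 10.3 CPM at E12.5 (log2 change -1.52, adjusted p = 0.00139).

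With loss of Tet1, 7 of the same 101 genes rose and 1 fell in E14.5 females, where 6.65% of all genes were called, and their median log2 change was 0, against -0.034 over all tested genes. Bmp7, a ligand, was at 19.3 ± 2.60 CPM in Tet1-KO and 7.79 ± 2.18 CPM in Tet1-WT (log2 change 1.32, adjusted p = 0.0274), and Acvr1, a type I receptor, was at 15.5 ± 0.40 CPM in Tet1-KO and 4.31 ± 1.54 CPM in Tet1-WT (1.86, adjusted p = 0.0267). Hey1 was higher by 1.55 (adjusted p = 0.0187), and the WNT target Tnfrsf19 was at 56.6 ± 10.1 CPM in Tet1-KO and 18.0 ± 3.83 CPM in Tet1-WT (1.66, adjusted p = 0.00155). The gene that fell was Sycp3, of the synaptonemal complex, which holds paired meiotic chromosomes. In E14.5 males 0 of the 101 were called by edgeR, with 0.102% of all genes called. In E12.5 females and males 3 fell in each and none rose by that test, with 1.29% of all genes called in females and 1.06% in males. Smad5 was among the 3 in males, at 38.8 ± 6.88 CPM in Tet1-KO and 105 ± 10.3 CPM in Tet1-WT (log2 change -1.44, adjusted p = 0.0135). Tcf7l2, Fzd2 and Tbx3 were the 3 in females, where mesenchyme sums were 42.8 and 45.2 CPM in Tet1-KO and 802 and 1138 CPM in Tet1-WT. With that sum as a covariate 0 of all tested genes were called by edgeR in E12.5 females and 0 in E12.5 males. At E10.5, 5 rose and 7 fell in libraries labelled Tet1-KO, where 8.81% of all genes were called, among them the WNT target Ccnd1 at 3.03 ± 1.34 CPM, against 36.4 ± 0.18 CPM in those labelled Tet1-WT. On average 5 rose and 16 fell, where 13.9% of all genes were called, and Smad5 was lower by 0.70 on the log2 scale (adjusted p = 0.000927). With the mesenchyme covariate 0 of all tested genes were called on average by edgeR. As given above, fits with that covariate can hardly separate genotype from marker level.

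The 2 MF1 libraries gave a second view of wild-type E10.5 cells, from another cross and RNA kit and with more counts. Cross, kit and depth cannot be told apart. Id2 was at 118 and 104 CPM in MF1 cells, against 721 and 699 CPM in the libraries labelled Tet1-WT (log2 change -2.81, SE 0.33, adjusted p = 0.046). It was the 1 member called, where 0.606% of all genes were called and 0.516% called lower. Without Tet1-WT replicate 1 the adjusted p was 0.054. Mesenchyme sums were 48.9 and 69.1 CPM in MF1 and 1636 and 1979 CPM in Tet1-WT, and their part was not tested. Msx1 was at 0.234 and 9.61 CPM in the 2 MF1 libraries, and Axin2 at 1.78 and 7.06 CPM, so these libraries differed from each other. Leaving out either MF1 library changed which members were called, and far more of all genes were called in those fits. Msx2 was at 19.8 and 31.4 CPM in MF1 and 10.8 and 5.29 CPM in Tet1-WT, apart and not called (log2 change 1.50, adjusted p = 0.252). Lef1 was at 78.1 CPM in both MF1 libraries and 69.5 and 84.4 CPM in Tet1-WT.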

How the data were processed

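The authors deposited 2 tables of raw read counts per gene, 1 of 20 libraries of the Tet1 cross and 1 of 2 libraries of the MF1 cross. Per the submitters' processing notes reads were handled with Trimmomatic, Bowtie 0.12.8, TopHat2 2.0.2 and HTSeq 0.5.3p9 on build mm9; the counting strand and the treatment of reads with several matches are not given in the sources used here, so overlapping or antisense genes cannot be separated. Per the labels cDNA was amplified from small RNA amounts without molecular identifiers being named, so reads are not independent molecules. Columns were matched to samples by name. The 8 Tet1-KO columns of E12.5 and E14.5 come in pairs of the same name, so they are tied to their group and called library a and b.

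Symbols were assigned by Ensembl identifier. edgeR 4.0.16, run in R 4.3.3, took the counts as deposited: genes passing filterByExpr (minimum count 10, minimum total 15), TMM scaling, 1 coefficient for each of 10 groups and the robust quasi-likelihood test, with a common biological coefficient of variation of 0.46. A result counts as called where its p, adjusted by Benjamini-Hochberg over all genes tested in the comparison, is under 0.05. MF1 was compared in a separate fit of 4 libraries and 15500 genes. CPM (counts-per-million) are relative to the TMM-scaled total, and intervals are 95% intervals of the fitted log2 change. Likeness used log2 CPM with a prior count of 2. Alternatives were other size factors, no low-count filter, DESeq2 1.42.0, the libraries of 1 comparison alone, a mesenchyme covariate, a replicate block and each library left out. The scripts were tested on simulated data. Figures were drawn with Python 3.11.15 and matplotlib 3.10.9.

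The members and lists were chosen with earlier results of these data known. Named were the 9 members in every comparison, Tet1, called genes of the other BMP, WNT and meiotic entry lists by smallest adjusted p (up to 6 in a comparison) and the genes most like each member; the text gives a part of them.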

Additional observations from a re-analysis of the deposited data

Results flagged for a closer look

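The step from E12.5 to E14.5 in Tet1-WT differed between the sexes for 4 members by a test of the difference itself. The log2 difference, male minus female, was -3.49 for Msx1, -4.63 for Id1, -3.45 for Id2 and -3.06 for Id3. By edgeR Id1 and Id3 fell in males and did not pass the test in females, Id2 fell in both sexes, and Msx1 rose in females and did not pass in males. In females DESeq2 called Id1 higher, and without E12.5 female replicate 1 edgeR called Id1 and Id3 higher and did not call Id2. Groups of 2 libraries were too small to look for single libraries that stand apart.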

How the results depend on the processing

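Without a low-count filter the counts of called members were 3 at E10.5, 4 in E12.5 males and 4 on average for Tet1-KO against Tet1-WT. They were 2, 5 and 3 for the Tet1-WT comparisons of E12.5 female with E10.5, E14.5 with E12.5 female and E12.5 male with female, and 2 for the sex difference of the Tet1-KO effect at E12.5. Of all genes 9.91%, 3.46% and 11.9% were called in the first 3 of these, 11.8%, 19.2% and 2.24% in the next 3, and 0.427% in the last. DESeq2 gave member counts of 2 at E10.5, 4 in E12.5 males, 4 on average, 2 for E12.5 female against E10.5, 3 for E12.5 male against female, 1 for the sex difference of the Tet1-KO effect at E14.5 and 2 for MF1. In the same order it called 15.8%, 4.71%, 18.9%, 19.5%, 4.23%, 6.27% and 15.8% of all genes. With only the libraries of the comparison the member count was 0 at E10.5, 3 in E12.5 males and 0 for E12.5 male against female. Of all genes 0%, 9.24% and 0.327% were called there. With all 22 libraries the member count was 2 for MF1, where 24% of all genes were called. With the mesenchyme covariate the member count was 0 on average, at E10.5, in E14.5 females and in E12.5 males. In that order 0%, 0.0797%, 1.74% and 0% of all genes were called. That covariate also reversed the log2 change of Id2 at E10.5 (0.118), in E12.5 males (0.411) and on average (1.12). In E12.5 females it reversed those of Id1 (-0.29) and Lef1 (-0.379), and the cause was not tested. Marker sums of the genotypes overlapped only in E14.5 males, so these fits can hardly separate genotype from marker level.

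No pairing by replicate number was seen over the 12 numbered libraries. Correlations of same-numbered deviations over 15 pairs of groups lay between -0.0324 and 0.0477. Tet1-KO libraries of E12.5 and E14.5 could not be checked in this way. A replicate block could be fitted over 12 numbered libraries, a subset chosen after seeing the data. With the block 0 members were called at E10.5, for E12.5 female against E10.5 and for E12.5 male against female, and without it the same 12 libraries also gave 0 for each of these, and 3 for E12.5 male against E10.5. With the block that last count was 4, E14.5 male against female gave 5, and the sex difference of the step gave 4. Of all genes the block fit called 2.55% at E10.5, 7.67% for E12.5 female against E10.5 and 0.117% for E12.5 male against female. For E12.5 male against E10.5 the share was 4.61%, for E14.5 male against female 22.2% and for the sex difference of the step 6.8%. No paired analysis was possible for Tet1-KO at E12.5 and E14.5 or on average because those columns carry no number.

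With each library left out, where a lone library is assumed to vary like the others, counts were 0 to 1 at E10.5, 0 to 3 in E12.5 females, 0 to 1 in E12.5 males, 0 to 1 in E14.5 females and 1 to 2 on average. In Tet1-WT they were 0 to 2 for E12.5 female against E10.5, 0 to 4 for E12.5 male against E10.5, 1 to 2 for E14.5 female against E12.5, 0 to 2 for E12.5 male against female, 0 to 1 for the sex difference of the Tet1-KO effect at E12.5 and 0 to 5 for MF1. The counts for E14.5 male against female (5 to 6), the male step from E12.5 (3 to 4) and its sex difference (3 to 5) kept within 1.5 times. The share of all genes called moved between these fits as well. The log2 change of Id1 ranged from -0.505 to 1.29 for Tet1-KO in E12.5 females and from -1.59 to 0.204 for E12.5 male against female. Of 318 values of the 29 called changes under any alternative, 247 were called in the same direction, 70 were not called and 1 was of opposite sign. With 2 libraries a group, Msx1 and Msx2 at E14.5 in males rest on few reads.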
